A study of Mus musculus with 6 samples.

Results

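Complement is a set of blood and tissue proteins that mark targets for uptake, and macrophages make some of its components and carry its receptors. Here 9 complement genes were followed in RAW264.7 cells, a mouse macrophage cell line: the C1q chain genes C1qa, C1qb and C1qc, the component and alternative pathway genes C3, Cfb and Cfp, and the anaphylatoxin receptor genes C3ar1, C5ar1 and C5ar2. Members were chosen by gene symbol, with earlier results of these data known, and all 9 had a row among the 23154 genes of the expression table. RNA sequencing compared cells carrying an inducible HA-NUR77 transgene with cells carrying inducible GFP in the same vector, pINDUCER20b, with 3 libraries each. NUR77, the product of Nr4a1, is a nuclear receptor, and HA is a peptide tag. Both lines received doxycycline, the inducer, for 18 hours at 1 µg/mL, added 24 hours after plating, and each library came from its own culture dish. Each construct was represented by a stable line, and the labels do not say whether a line was a clone or a pool. A difference between the lines and an effect of the transgene therefore cannot be told apart, and libraries without doxycycline were not analysed here.

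As background, C1q recognizes bound antibody and dying cells and starts the classical pathway, and tissue macrophages are a main source of it. All activation routes meet at C3, whose cleavage coats targets and releases a small peptide, the C3 anaphylatoxin. Factor B, encoded by Cfb, forms the alternative pathway convertase with cleaved C3, and properdin, encoded by Cfp, stabilizes that convertase. The anaphylatoxins of C3 and C5 act on G protein-coupled receptors encoded by C3ar1 and C5ar1, while C5ar2 encodes another C5 anaphylatoxin receptor that does not couple to G proteins.

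Libraries held 11199468 to 15929487 reads assigned to genes, and levels are given as normalized reads, scaled to 10000000 per library, so that 1 read was worth 0.628 to 0.893 normalized reads. Nr4a1 itself gave 170.0, 148.2 and 161.4 normalized reads with GFP, against 288.4, 314.2 and 296.8 with NUR77. The macrophage marker genes included 9 of 10 at a mean of at least 10 normalized reads, with a summed level of 60858 to 62236 in GFP and 28200 to 30016 in NUR77 libraries. Lyz2, encoding lysozyme, and Cd68 made up most of the difference. Their means were 26664 and 14010 normalized reads in GFP against 2566 and 5136 in NUR77 cells. Csf1r, Cd14 and Adgre1 were also called lower, with log2 fold changes of -0.77, -1.26 and -0.59. Itgam and Fcgr1 rose, and Ptprc and Spi1 were not called. Of the other marker lists, the 6 skeletal muscle genes summed to 34.6 to 39.7 in GFP and 39.0 to 158.9 in NUR77 libraries, and the 5 fibroblast genes to 17.6 to 22.3 and 22.3 to 92.9. Both upper values came from NUR77 replicate 1. The 6 neutrophil genes summed to 4.18 to 6.91 in GFP and 13.5 to 40.2 in NUR77 libraries, with S100a8 at a mean of 3.91 and 25.7, and the 3 endothelial genes to 3.14 to 3.92 and 26.8 to 32.0, with Pecam1 at 1.07 and 27.9. Neither sum overlapped between the lines, but only S100a8 and Pecam1 rose in these lists. Over all GFP and then all NUR77 libraries, Cdh5 had 3 and 1 reads and Kdr 8 and 2. S100a9 had 2 and 1, Mpo 1 and 0 and Elane 3 and 0. The defining markers Pdgfra, Ly6g, Camp, Cd3e and Krt8 had no read. The part of these signals in the results below was not tested, and the members' values are also given without that library. Lines differed in much of the transcriptome: by limma with Benjamini-Hochberg adjustment over 11201 tested genes (mean of at least 10 normalized reads), 7475 passed an adjusted p of 0.05, which is 66.7%. Of all tested genes, 38.4% were higher and 28.3% lower in NUR77 cells, with a median log2 fold change of 0.06.

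The C3, Cfp, C3ar1, C5ar1 and C5ar2 messages were higher in the NUR77 line, by 4.84-fold, 4.17-fold, 1.77-fold, 2.64-fold and 3.92-fold. C1q chain messages were close to absent in both lines, with 12 reads over the 3 GFP libraries and 1 over the 3 NUR77 libraries. Cfb had 0 reads in GFP and 1 in NUR77 libraries. Of the 9 members, 5 reached the level needed for testing and 4 did not. All 5 tested members were called higher and none lower, beside a share of 38.4% higher among all tested genes, and in all 5 the NUR77 values lay above every GFP value, a separation in either direction seen for 70.6% of tested genes. C5ar2 reached the tested level through its NUR77 values alone, and members were chosen with earlier results of these data known. The count of 5 is therefore a description of these genes. Without NUR77 replicate 1, the library with the highest muscle and fibroblast sums, the log2 fold changes were 2.27 for C3, 2.12 for Cfp, 0.89 for C3ar1, 1.37 for C5ar1 and 1.80 for C5ar2, and each still passed. In bulk RNA, fewer cells of a type and less RNA per cell cannot be told apart.

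**Figure D1:**
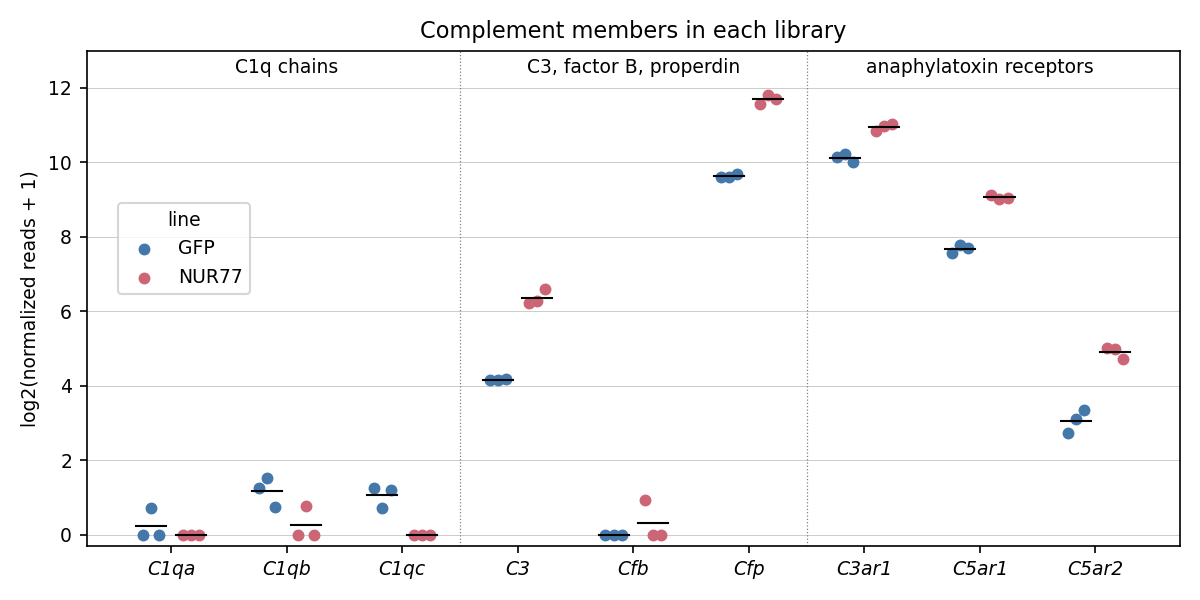
Expression of the 9 complement genes in each library, as log2(normalized reads + 1) on the vertical axis, with GFP libraries in blue, NUR77 libraries in red and a line at each group's mean. The 3 C1q chains and Cfb lie within a few reads of 0, while the NUR77 points of C3, Cfp, C3ar1, C5ar1 and C5ar2 sit above all their GFP points.

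Sequences before the RefSeq start of 4 of the 5 risen members are shown because short motifs were searched there. They come from the RefSeq promoter table for GRCm38.p6, which held 8 windows for 7 of the 9 members, each running from 250 bases before to 50 bases after the start. C1qa and Cfb are not among them. C5ar2, which also rose, had a window without a match to any motif searched, and its sequence is not printed. All 4 sequences are on the minus strand and are written 5′ to 3′ along the gene. C3 is from chr17:57228137-57228386, Cfp from chrX:20931556-20931805, C3ar1 from chr6:122856162-122856407 and C5ar1 from chr7:16259386-16259414. Capitals mark a motif match. For C5ar1 only the stretch around its match is given, and its RefSeq start lies 202 bases inside the gene's outermost annotated exon end, so this stretch is within the gene's annotated span.
C3: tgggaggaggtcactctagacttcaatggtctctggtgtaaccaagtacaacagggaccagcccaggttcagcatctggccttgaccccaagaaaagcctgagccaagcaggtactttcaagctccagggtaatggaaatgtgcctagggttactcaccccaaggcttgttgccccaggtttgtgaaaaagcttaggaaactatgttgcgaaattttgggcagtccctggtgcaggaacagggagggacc
Cfp: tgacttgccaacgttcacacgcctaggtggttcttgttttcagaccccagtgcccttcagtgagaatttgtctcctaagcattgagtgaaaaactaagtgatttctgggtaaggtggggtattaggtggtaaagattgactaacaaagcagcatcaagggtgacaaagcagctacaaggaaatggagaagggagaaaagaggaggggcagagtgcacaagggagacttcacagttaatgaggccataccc
C3ar1: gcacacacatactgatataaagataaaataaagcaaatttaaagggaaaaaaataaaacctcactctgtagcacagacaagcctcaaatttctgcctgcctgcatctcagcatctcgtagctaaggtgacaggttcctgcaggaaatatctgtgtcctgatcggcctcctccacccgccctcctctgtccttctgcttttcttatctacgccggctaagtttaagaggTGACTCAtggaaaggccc
C5ar1: agagacttccTTCCTTTTCcaagttgaca
The capitals in C3ar1 are the AP-1 motif TGANTCA, which reads the same on both strands. Those in C5ar1 are the reverse complement of GAAANNGAA, the core of the interferon-stimulated response element. Both strands of each window were searched. GAAANNGAA occurred in 8.56% of all 32851 promoter windows of this length and TGANTCA in 7.81%. Each matched in 1 of the 8 member windows. The NBRE, the monomer site of NUR77 and its relatives, was searched as AAAGGTCA. It occurred in 1.51% of all windows and in 0 of the 8 member windows. The Maf recognition core TGCTGAC, present in 4.67% of windows, was also in 0 of the 8, and an NF-kB consensus, present in 4.51%, matched in the C1qc window. A match is a run of letters, and binding was not measured.

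C1qa, C1qb and C1qc encode the A, B and C chains that assemble into C1q, and lie side by side on chromosome 4 on the minus strand (mm10). C1qb spans 136880129 to 136886187, C1qc 136889804 to 136893065 and C1qa 136895917 to 136898803, with 3616 bases between C1qb and C1qc and 2851 between C1qc and C1qa. C1qa had 0, 1 and 0 reads in GFP libraries and 0 in each NUR77 library. C1qb had 2, 3 and 1 reads in GFP libraries and 0, 1 and 0 in NUR77 libraries. C1qc had 2, 1 and 2 reads in GFP libraries and 0 in all 3 NUR77 libraries. Reads of C1qb and C1qc were thus spread over all GFP libraries, and a single read of any chain came from the NUR77 libraries, in replicate 2.

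Pooled over libraries and scaled for depth, C1qb was 5.02 times as high in GFP as in NUR77 cells, with a 95% Poisson interval of 0.609 to 230.8 that includes no difference. C1qc had 5 reads against 0, and the lower limit of the corresponding interval, 0.766, also includes no difference. C1qa was at or under a floor of 3 reads over the group in both lines. Summed over the 3 chains, levels were 2.79, 3.14 and 1.96 normalized reads in GFP libraries and 0, 0.697 and 0 in NUR77 libraries, so the groups did not overlap. The summed means were 2.63 ± 0.605 and 0.232 ± 0.402 (SD, n = 3 each), with a two-sided exact permutation p of 0.1, the smallest that 3 against 3 allows. The ratio of the 12 reads to the 1 read was 10.0, with an interval of 1.49 to 429.1 that covers counting error only. None of the chains reached the tested level, and with so few reads no difference in their shares was tested.

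C3, the central component (chr17:57203970-57228136, minus strand), was low in GFP cells at 16.7, 16.9 and 17.0 normalized reads. In NUR77 cells it stood at 73.2, 76.6 and 95.5. The GFP values were nearly identical, but they came from 24, 27 and 26 reads, so their SD understates counting error. The lowest NUR77 value, from 82 reads, was far above them. The mean went from 16.9 ± 0.145 to 81.8 ± 12.0 (SD, n = 3 each), a log2 fold change of 2.20 (SE 0.17, 95% interval 1.84 to 2.56, adjusted p = 5.5e-09, limma). By size of change in either direction it ranked 523 of the 11201 tested genes, and by size of rise it ranked 304 of them.

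Cfp, the properdin gene (chrX:20925454-20931555, minus strand), was the most abundant member per kb in both lines, and by normalized reads in NUR77 cells, while in GFP cells C3ar1 had more normalized reads. It stood at 778, 780 and 828 normalized reads in GFP libraries and at 3034, 3574 and 3334 in NUR77 libraries. The groups were widely separated, each with a narrow range. Its mean went from 795 ± 28.6 to 3314 ± 270.4, a log2 fold change of 2.06 (SE 0.06, 95% interval 1.93 to 2.18, adjusted p = 1.7e-14, limma). By size of rise it ranked 334 among all tested genes.

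Cfb, the gene of the enzyme subunit of the alternative pathway convertase (chr17:34856374-34862518, minus strand), had 0 reads in every GFP library and 1, 0 and 0 reads in the NUR77 libraries. Both totals lie at or under the floor of 3 reads, and a difference was not detectable at this depth. In the annotation used for names, its exons overlap those of a readthrough gene on the same strand, Gm20547, so reads could have been left uncounted as ambiguous and the value is uncertain. C3, Cfb and Cfp together summed to 812 ± 28.7 normalized reads in GFP and 3396 ± 272.7 in NUR77 cells, 4.18-fold higher (two-sided exact permutation p = 0.1, n = 3 each). Cfp made up 97.9% of that sum in GFP and 97.6% in NUR77 cells, so the sum describes properdin.

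C3ar1, the receptor of the C3 anaphylatoxin (chr6:122847138-122856161, minus strand), was present at 1123, 1206 and 1032 normalized reads in GFP libraries. The NUR77 libraries gave 1820, 2031 and 2106. Groups did not overlap, and the rise was the smallest of the 5: 1120.4 ± 87.0 to 1986 ± 148.5, a log2 fold change of 0.83 (SE 0.07, 95% interval 0.69 to 0.96, adjusted p = 9.9e-09, limma). It ranked 1098 by size of rise among all tested genes.

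C5ar1, the signalling receptor of the C5 anaphylatoxin (chr7:16246743-16259540, minus strand), stood at 187, 217 and 206 normalized reads in GFP libraries and at 561, 518 and 531 in NUR77 libraries. Again all NUR77 values were above all GFP values. The log2 fold change was 1.40 (SE 0.07, 95% interval 1.24 to 1.56, adjusted p = 4.4e-11, limma), from a mean of 203 ± 15.4 to 537 ± 21.8.

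C5ar2 (chr7:16234585-16244154, minus strand) lies 2588 bases from C5ar1 and was far scarcer. Its counts were 8, 12 and 14 reads in GFP libraries and 35, 44 and 32 in NUR77 libraries, or 5.57, 7.53 and 9.15 against 31.3, 30.7 and 25.5 normalized reads. The lowest NUR77 value was more than the highest GFP value. Its mean went from 7.42 ± 1.79 to 29.1 ± 3.19, a log2 fold change of 1.86 (SE 0.26, 95% interval 1.31 to 2.40, adjusted p = 7.0e-06, limma), with the widest interval of the 5. The annotation also holds a small nuclear RNA gene, Gm26473, over its exons.

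Together the 3 receptor genes summed to 1331 ± 92.8 normalized reads in GFP and 2551 ± 127.7 in NUR77 cells, 1.92-fold higher (two-sided exact permutation p = 0.1, n = 3 each). C3ar1 held 84.2% of the sum in GFP and 77.8% in NUR77 cells, C5ar1 15.3% and 21%, and C5ar2 0.557% and 1.14%. Per kb of merged exons, the ratio of C5ar2 to C5ar1 was 0.0215, 0.0250 and 0.0321 in GFP libraries and 0.0402, 0.0427 and 0.0346 in NUR77 libraries. All NUR77 ratios were higher, by 0.59 in mean log2 ratio (exact permutation p = 0.1, n = 3 each). The ratio of C5ar1 to C3ar1, a comparison added after the values were seen, was 0.278, 0.302 and 0.334 in GFP and 0.516, 0.427 and 0.422 in NUR77 libraries, a difference of 0.58 on the log2 scale with the same p. Neither ratio can pass 0.05 with 3 libraries against 3. The C5ar2 ratios came close to meeting, at 0.0321 in GFP replicate 3 and 0.0346 in NUR77 replicate 3, from 14 and 32 C5ar2 reads.

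On the per kb scale, which allows genes to be compared, the 5 tested members kept 1 order in 6 of 6 libraries. Cfp was highest, at 458 ± 16.4 normalized reads per kb in GFP and 1909 ± 155.8 in NUR77 cells. C3ar1 followed at 260 ± 20.2 and 461 ± 34.5, then C5ar1 at 79.1 ± 5.99 and 209 ± 8.49. C3, a long message, was at 3.28 ± 0.0281 and 15.9 ± 2.33, and C5ar2 was lowest at 2.08 ± 0.503 and 8.18 ± 0.895. The small GFP SD of C3 understates counting error. No neighbours in this order overlapped within either line. The gap between C5ar1 and C3 was the widest, 24.1-fold in GFP and 13.1-fold in NUR77 cells. Against all tested genes, Cfp moved from percentile 90.9 to 98.0, C5ar1 from 47.3 to 75.8 and C3 from 3.71 to 13.4.

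**Figure D2:**
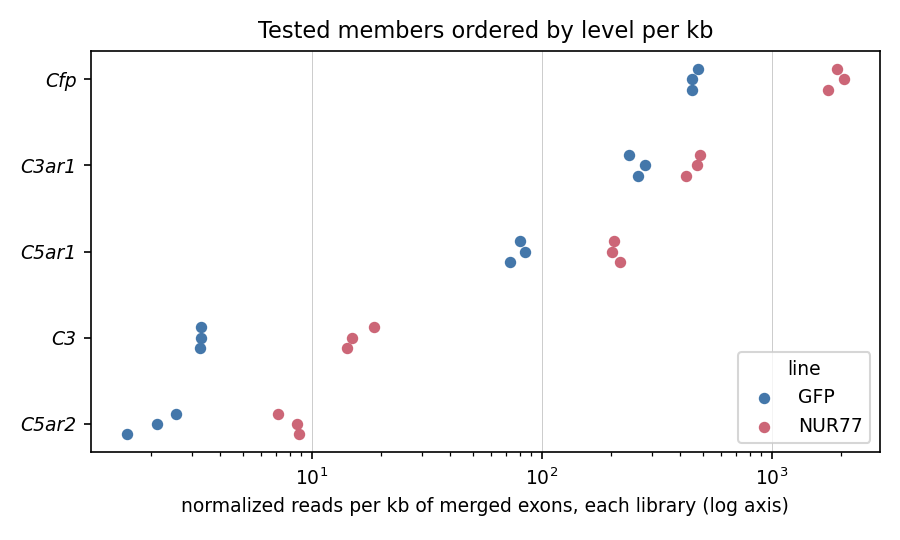
Level per kb of merged exons of the 5 tested members in each library, on a log axis, with GFP libraries in blue and NUR77 libraries in red. Genes are ordered from Cfp, at 458 in GFP and 1909 in NUR77 cells on average, down to C5ar2, at 2.08 and 8.18.

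The nearest tested genes on the chromosome did not share 1 pattern. Beside Cfp, the neuronal synapsin gene Syn1, 4.45 kb away, had a mean of 1.30 normalized reads in GFP and 33.5 in NUR77 cells and rose by 3.92 in log2 terms (adjusted p = 2.2e-08, limma), reaching the tested level through its NUR77 values alone. The transcription factor gene Elk1, 1.84 kb away on the other side, rose by 0.62 (adjusted p = 5.8e-07, limma). Beside C3, Gpr108 at 6.50 kb had a log2 fold change of 0.01 (adjusted p = 0.95, limma) and Tnfsf9, a cytokine gene, fell by 1.02. Beside C3ar1, Foxj2 and Necap1 rose by 0.23 and 0.51. Flanking the C5 receptor pair, Dhx34 rose by 0.21 and Inafm1 fell by 0.45. Kdm1a and Zbtb40, the nearest tested genes to the C1q cluster, rose by 0.33 and 0.24.

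Across the 6 libraries, the genes with a profile closest to C3 were Birc3, an inhibitor of apoptosis gene, Grap, an adaptor gene, and Tanc2, a scaffold gene. Their root mean square distances from C3, in log2 values centred on the GFP mean, were 0.051, 0.081 and 0.09, against a median of 1.528 over all tested genes. They were picked for the smallest distances, so values under the median were fixed in advance. Such a distance mostly reflects a log2 fold change near that of C3, here 2.22, 2.13 and 2.09. Birc3 went from 340.0 ± 6.85 to 1594 ± 165.4 normalized reads, Grap from 296 ± 11.7 to 1306 ± 196.6 and Tanc2 from 191 ± 7.19 to 820.0 ± 83.6.

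Other complement genes moved in both directions. Of 50 further genes listed by role, 46 had a row, and Mbl1, Mbl2, C8a and C8b were not analysed here. Of the 46, 17 were tested, 29 were below the level for testing and 11 of those had no read in any library. Of the 17, 5 rose (against 38.4% of all tested genes), 9 fell (against 28.3%) and 3 did not pass, with a median log2 fold change of -0.47 beside 0.06 for all tested genes. No terminal pathway gene reached the tested level, nor did Cfd, which encodes the alternative pathway protease factor D.

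**Figure D3:**
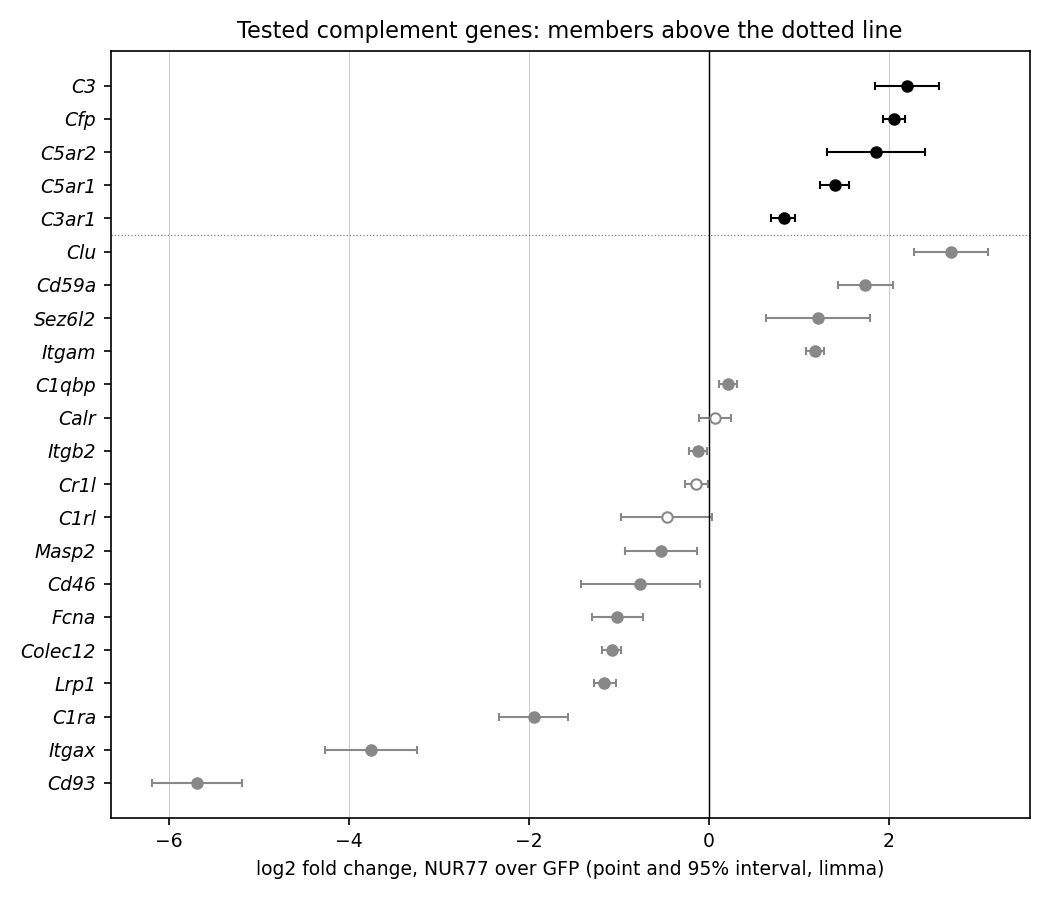
Log2 fold change, NUR77 over GFP, of the 22 tested complement genes, with 95% intervals from limma. Black points are the 5 tested members, grey points the other 17 genes, and open points those that did not pass an adjusted p of 0.05. Values run from 2.69 for Clu to -5.68 for Cd93.

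In the classical and lectin pathways, 5 of 17 listed genes were tested, and 4 fell while none rose. Among all tested genes, 28.3% were lower and 38.4% higher. C1ra, a serine protease that works with C1q, stood at 96.9, 114.3 and 96.1 normalized reads in GFP and 19.6, 34.1 and 25.5 in NUR77 libraries. Groups did not overlap, and the log2 difference was -1.94 (adjusted p = 6.3e-08, limma). Its reads are uncertain because C1rb is a near copy. Colec12, a scavenger receptor with a collectin domain, fell from 3013 ± 80.6 to 1428 ± 68.6 normalized reads, and Fcna, a ficolin of the lectin pathway, from 101 ± 3.64 to 49.7 ± 6.42 (adjusted p = 1.0e-11 and 3.8e-06, limma). The lectin pathway protease gene Masp2 fell from 35.8 ± 2.98 to 24.7 ± 3.61 (adjusted p = 0.022, limma), a call that was lost without GFP replicate 1 (0.055), GFP replicate 3 (0.086) or NUR77 replicate 1 (0.073). C1rl, a C1r-like protease gene, had a log2 fold change of -0.47 (95% interval -0.97 to 0.03, adjusted p = 0.088, limma). It passed without NUR77 replicate 3, at -0.66 and an adjusted p of 0.026.

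Among regulators, 5 of 15 were tested, and 3 rose and 1 fell (against 38.4% and 28.3% of all tested genes). Clu, encoding clusterin, which restrains the terminal complex, was at 44.6, 40.2 and 54.9 normalized reads in GFP and 404.5, 301.6 and 227.5 in NUR77 libraries. Its 6.68-fold rise (log2 2.69, adjusted p = 9.8e-08, limma) was the largest of the 22 tested complement genes. Cd59a, a membrane inhibitor of the terminal complex, rose from 31.0 ± 2.15 to 105.7 ± 12.2, with Cd59b as a near copy that makes its reads uncertain. Sez6l2 rose from 7.50 ± 1.36 to 18.6 ± 3.04 and reached the tested level through its NUR77 values. Cd46, a cofactor for cleavage of C3 fragments, fell from 16.9 ± 2.95 to 10.0 ± 4.03 (adjusted p = 0.04, limma). That call was lost without GFP replicate 1 (0.13), GFP replicate 2 (0.092) or NUR77 replicate 2 (0.2), and without the trend in limma (0.065). Cr1l, the rodent membrane regulator also called Crry, went from 1103 ± 59.5 to 1004 ± 50.6 (adjusted p = 0.0502, limma), and passed without GFP replicate 3 (0.037) or NUR77 replicate 2 (0.026), under each of the 3 other scalings (0.0051 to 0.0084) and with the replicate block (0.028).

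Receptors of other complement fragments split. Of 9 listed, 7 were tested, and 2 rose and 4 fell (against 38.4% and 28.3% of all tested genes). Itgam, the alpha chain of complement receptor 3, stood at 4288, 4208 and 4175 normalized reads in GFP and 9975, 9617 and 9201 in NUR77 libraries, while Itgax, the alpha chain of complement receptor 4, stood at 193.0, 155.7 and 158.8 against 17.0, 12.5 and 7.16. Both were clear of overlap, in opposite directions. On the log2 scale Itgam rose by 1.18 and Itgax fell by 3.75 (adjusted p = 8.4e-13 and 4.2e-09, limma). Both chains pair with the beta chain of Itgb2, whose mean was 4145 ± 68.0 normalized reads with GFP and 3816 ± 40.1 with NUR77, a log2 difference of -0.12 (adjusted p = 0.028, limma). The Itgb2 call was lost without GFP replicate 2 (0.056), GFP replicate 3 (0.12) or NUR77 replicate 3 (0.053), and without the trend in limma (0.059). The ratio of Itgax to Itgam per kb, added after the values were seen, was 0.0419 ± 0.00456 in GFP and 0.00132 ± 0.000484 in NUR77 cells, 31.7-fold lower (two-sided exact permutation p = 0.1, n = 3 each).

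Cd93, a surface receptor linked to C1q and to uptake of dying cells, had the largest change of the 22 tested complement genes. It stood at 441.8, 433.8 and 469.9 normalized reads in GFP and at 8.04, 11.8 and 4.77 in NUR77 libraries. Its NUR77 mean, 8.22, was below the level for testing, which it reached through its GFP values. It was 54.6-fold lower, with a log2 fold change of -5.68 (adjusted p = 2.7e-10, limma). Lrp1, a large endocytic receptor that works with calreticulin in C1q-dependent uptake, fell from 17917 ± 463.9 to 8065 ± 773.5 normalized reads, 2.22-fold lower. C1qbp, a C1q-binding protein that is mostly mitochondrial, rose by 0.21 on the log2 scale (adjusted p = 0.0011, limma). Calr, the calreticulin gene, had a log2 fold change of 0.07 (95% interval -0.11 to 0.25, adjusted p = 0.5, limma), and passed without NUR77 replicate 3, at 0.17 and an adjusted p of 0.017.

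**Figure D4:**
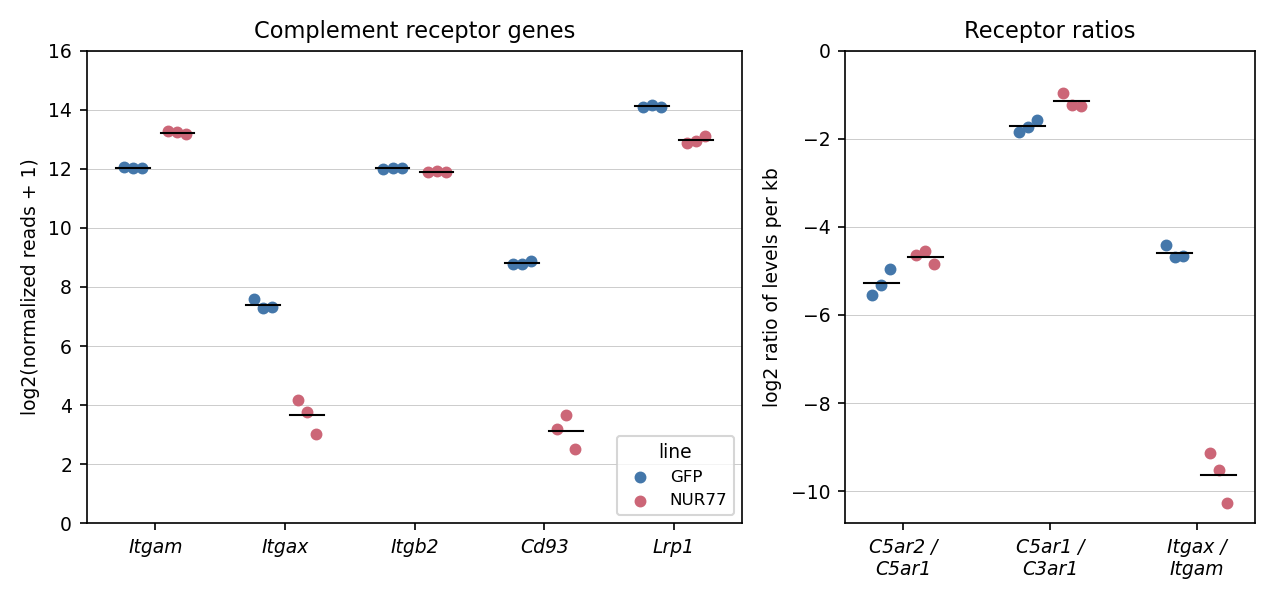
Left, log2(normalized reads + 1) of 5 other complement receptor genes in each library, GFP in blue and NUR77 in red, with a line at each group's mean. Right, log2 ratios of levels per kb within pairs of receptor genes, where the C5ar2 to C5ar1 ratio is higher by 0.59 and the Itgax to Itgam ratio lower by 5.05 in NUR77 libraries.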

How the data were processed

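Polyadenylated RNA of 6 dishes was made into strand-specific libraries. Per the submitters' processing notes, the authors used TopHat2 2.1, HTSeq and DESeq2 with mm10; annotation and strand setting: not given in the sources used here. Deposited values are log2(normalized reads + 1), which sum to 10000000 per library once the log is undone. Reads came out whole (within 0.1) for 100% of values. Members and lists were chosen with earlier results of these data known.

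Ensembl IDs were matched to GENCODE M21 (GRCm38): 22888 of 23154 had a name. Genes with a mean of at least 10 normalized reads were tested with limma 3.58.1 in R 4.3.3 (trend and robust moderation, pseudocount 1, Benjamini-Hochberg over 11201 genes, threshold 0.05). That procedure was also run on simulated data with far fewer changed genes than were called here, so the simulation does not cover this setting. Ratios and sums had exact permutation tests. A fold change of a low gene is understated on this scale. Floors and intervals cover counting error only, and p-values measure spread between dishes of a line, which may be technical. The genes named were the members, the tested genes of a complement list, the nearest tested neighbours and the 3 genes most like C3. The closest genes to C1q were not sought, since no chain was tested. Alternatives were other scalings, pseudocounts and filters, limma-voom on the recovered reads, no trend, a replicate block and each library left out.  Replicates differed by more than sampling noise. Some listed genes are not reported here.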

Additional observations from a re-analysis of the deposited data

How the results depend on the processing

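Of the 5 tested members, all 78 values over 16 alternatives, among them leaving out each library and limma-voom on recovered reads, kept their direction and stayed past the threshold. The log2 fold changes ranged from 1.98 to 2.27 for C3, 1.98 to 2.12 for Cfp, 0.75 to 0.89 for C3ar1, 1.32 to 1.45 for C5ar1 and 1.46 to 2.00 for C5ar2. The count of members called higher fell to 3 with a filter at a mean of 50 normalized reads, since C3 and C5ar2 were then not tested. With no filter, 1 member was called lower, C1qc, at -1.06 and an adjusted p of 0.017 (limma). That call rests on 5 reads against 0, and the count interval, with a lower limit of 0.766, includes no difference. The log2 ratio of the C1q sums, -3.50, ranged from -3.67 to -2.92 when a library was left out, with no value without NUR77 replicate 2, whose single read is the line's only one. With the replicate block, 5 members were called higher and 0 lower, and of the other complement genes 5 higher and 10 lower; the added call was Cr1l. Same-numbered libraries had correlations of deviations of 0.002, 0.114 and 0.045, GFP replicate 1 correlated best with NUR77 replicate 3 (0.073), and the numbers were not taken as pairs. Depth limits the C1q chains, Cfb and the terminal pathway genes, where few reads were counted.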

Other observations

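Among complement genes below the level for testing, C4b and Hc had reads whose ratio between the lines had a 95% Poisson interval clear of 1. Both were picked out after their values were seen, and the intervals cover counting error only. C4b, a C4 gene of the classical pathway, had 37 reads over the GFP libraries and 8 over the NUR77 libraries, a depth-scaled ratio of 3.87 (1.77 to 9.62). C4a and C4b are near copies, so how reads fell between them is uncertain, and C4a had 14 reads in each line. Hc, which encodes C5, the source of the ligand of C5ar1 and C5ar2, had 1 read in GFP and 9 in NUR77 libraries, 10.8 times as many per unit of depth (1.49 to 471.6). By contrast, Cpn1, a subunit of the carboxypeptidase that trims anaphylatoxins, had 38 and 40 reads, and the interval of its ratio was 0.787 to 2.02.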
